A study of Mus musculus with 4 samples.

Results

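Dapl1, Degs2, Susd3, Gkn3, Itm2a and Tnfrsf17 are 6 little-studied genes that were picked because their signal was lower in the amygdala of P2X7 receptor knockout mice 6 h after lipopolysaccharide (LPS) than after saline. They were read by 7 probes among 41174 probes for transcripts, and make up 6 of the 19463 genes whose signal rose above background in at least 1 group. The probe file names 5 of them directly. The Gkn3 probe carries an older name, 1190003M12Rik, and was matched through its RefSeq accession. The values that chose the 6 genes are those of LPS against saline in knockout, so these are given below as a description with no test, and tests of these genes are confined to comparisons that the choice did not use.

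The study crossed genotype with treatment in 10-week-old male mice of the C57BL/6J strain, took the whole amygdala, and asked how loss of the P2X7 receptor, an ATP-gated channel, bears on gene expression with and without an immune challenge. The groups were knockout LPS, knockout saline, wild-type LPS and wild-type saline. LPS, a bacterial cell wall component sensed by Toll-like receptor 4, was injected intraperitoneally at 7.5 µg per mouse (also given as 250 µg/kg), the saline was 0.9% NaCl, and all mice were killed 6 h later. The labels give 4 mice in each group and the files hold 4 arrays in each, 16 in all, but no label links an array to a mouse. P-values therefore reflect array-to-array spread only, which may be technical. The labels call the knockout P2X7R -/- and describe neither the allele nor its origin. P2rx7, the targeted gene, was lower in knockout by −1.58 ± 0.18 (log2, SE, adjusted p = 2.2e-06, limma). The files do not place that probe inside or outside the deletion, and the genotypes were hybridised on separate slides.

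Degs2 encodes an enzyme of sphingolipid synthesis that desaturates and hydroxylates the sphingoid base of ceramides. Gkn3 (gastrokine 3) and Itm2a (integral membrane protein 2A) both encode proteins with a BRICHOS domain, a fold thought to act as a chaperone, and both are known from mouse brain as genes of blood vessel endothelium, Gkn3 chiefly of arteries. Susd3 encodes a small membrane protein with a sushi domain, the module of complement regulators. Tnfrsf17 encodes BCMA, the receptor by which plasma cells receive survival signals from the ligands BAFF and APRIL. Dapl1 encodes death-associated protein-like 1, a small protein known mainly from epithelia. LPS given in the periphery acts on the brain in large part through its vessels, whose endothelium carries receptors for LPS and for cytokines.

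The probes are 60 bases long. Their first 30 bases are shown as the identity of what was measured, from the deposited array files, in lower case and with mm9 coordinates of the whole probe. The files give no exon or UTR annotation for these positions.
Degs2, chr12:109928501-109928560, minus strand: gatacagagtaaccaggcttacctgaactt
Gkn3, chr6:87333375-87333434, minus strand: tctgaacctctacgtcagccagactggaca
Itm2a, chrX:104592916-104592975, minus strand: tagatttctgaaagcagcatgaatgtgtca
Susd3, chr13:49326311-49326370, minus strand: tctagaggtctcctctgtggctgttacagg
Susd3, dimmer probe, chr13:49335954-49336013, minus strand: ctcaaggcaccttgcaagtcgtccgtggag
Tnfrsf17, chr16:11320045-11320104, plus strand: tagataatgagcttcctaactggtgtgaag
Dapl1, chr2:59342824-59342883, plus strand: tctggagaaggctgctccaatgaagagggc

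Levels below are log2 values set against each array's own 75th percentile, so that 0 is that percentile. That percentile ranged from 345.9 to 1164.7 intensity units between arrays, and 58.1% to 71.9% of the probes were well above background. All 10 neuron markers and all 8 astrocyte markers in the lists lay well above background on every array, and 7 to 8 of 8 amygdala markers did, but so did 7 to 9 of 9 striatum markers. Wild-type saline replicates 1 and 2 stood apart from replicates 3 and 4. The mean level of 12 genes known to respond to LPS was 0.59 and 0.88 on replicates 1 and 2 but −4.55 and −4.53 on replicates 3 and 4. That mean lay between 1.65 and 1.98 on the knockout LPS arrays, against −4.19 to −3.76 on the knockout saline arrays. On the wild-type LPS arrays it was −1.09, 1.23, 1.36 and −0.73. Replicates 1 and 2 thus carry the saline label with LPS genes at the level of LPS arrays, and they share slide 1 with wild-type LPS replicates 1 and 3, while the other 4 wild-type arrays share slide 2. Wild-type results for the 6 genes are given with and without these 2 arrays.

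Degs2 lay at −3.29, −3.24, −3.55 and −2.24 on the 4 knockout LPS arrays, against 0.65, −0.22, −0.51 and −0.46 on the 4 knockout saline arrays. It lay at −2.02, −2.71, −3.09 and −2.77 on the wild-type LPS arrays, against −2.85, −2.25, −0.44 and −0.55 on the wild-type saline arrays. The knockout groups do not overlap, whereas wild-type saline is split, with replicates 1 and 2 inside the range of the wild-type LPS arrays and replicates 3 and 4 above all of them. The difference after LPS was −2.94 ± 0.48 in knockout (log2, SE, n = 4 arrays per group), which is 7.69-fold lower. Ordered by mean, knockout LPS (−3.08 ± 0.58, SD) was lowest, then wild-type LPS (−2.65 ± 0.45), wild-type saline (−1.52 ± 1.21) and knockout saline (−0.14 ± 0.54), and each group overlapped the next.

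Gkn3 lay at −2.62, −2.83, −2.96 and −2.67 on the knockout LPS arrays, against 0.68, 0.09, −0.23 and −0.60 on the knockout saline arrays. In wild type it lay at −2.52, −2.67, −2.50 and −2.03 after LPS, against −2.60, −2.85, −0.75 and −0.98 after saline. Its 4 knockout LPS values fall within a narrow band (SD 0.16), below every knockout saline value. The knockout difference was −2.75 ± 0.40 (SE), 6.74-fold lower. Knockout LPS had the lowest mean (−2.77) and overlapped wild-type LPS (−2.43 ± 0.28, SD), which overlapped wild-type saline (−1.79 ± 1.08). Knockout saline was highest (−0.01 ± 0.54) and did not overlap wild-type saline.

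Itm2a, whose signal was high on all 16 arrays (816.6 to 8914 intensity units), moved less. Its level was 1.33, 1.09, 1.47 and 1.30 on the knockout LPS arrays, against 2.47, 2.85, 2.81 and 2.72 on the knockout saline arrays. In wild type it was 2.67, 1.72, 1.76 and 1.72 after LPS, against 2.09, 1.75, 3.37 and 3.41 after saline. Wild-type LPS replicate 1 stood above the other 3 of its group, which lay within 1.72 to 1.76. The knockout difference was −1.42 ± 0.33 (SE), 2.67-fold lower, with no overlap. Knockout LPS (1.30 ± 0.16, SD) was the lowest group and lay below every wild-type LPS array (1.97 ± 0.47). Wild-type LPS overlapped wild-type saline (2.66 ± 0.86), and wild-type saline overlapped knockout saline (2.71 ± 0.17).

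Susd3 lay at −3.48, −3.37, −3.11 and −3.22 on the knockout LPS arrays, against 0.31, −0.56, −0.65 and −0.79 on the knockout saline arrays. Its wild-type levels were −2.82, −3.78, −3.83 and −2.71 after LPS, against −3.74, −3.79, −0.82 and −0.70 after saline. Knockout arrays separate fully by treatment, and wild-type saline replicates 1 and 2 lie among the lowest values of the series. In knockout the difference was −2.87 ± 0.60 (SE), 7.31-fold lower. The means of knockout LPS (−3.30 ± 0.16, SD) and wild-type LPS (−3.29 ± 0.60) were almost equal. They were followed by wild-type saline (−2.26 ± 1.74) and knockout saline (−0.42 ± 0.50), with overlap between each group and the next. A second, dimmer Susd3 probe was well above background on 0 of 4 knockout LPS, 2 of 4 knockout saline, 0 of 4 wild-type LPS and 3 of 4 wild-type saline arrays, and passed the filter only through wild-type saline. With the LPS arrays at the detection floor, it was at least 1.39-fold lower in knockout LPS than in knockout saline. In wild type the same bound was 1.76-fold, against the group through which this probe passed the filter. The dimmer probe did not show the split of wild-type saline, with −4.07, −5.91, −4.97 and −4.72 on replicates 1 to 4. Of these, replicate 2 was not well above background.

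Tnfrsf17 was dim. Its intensity was 8.85, 3.45, 7.13 and 5.83 units on the knockout LPS arrays, none well above background, against 85.7, 52.4, 56.0 and 27.8 units on the knockout saline arrays, all well above it. Its intensity was 5.77, 9.07, 4.64 and 3.26 units on the wild-type LPS arrays, none well above background, against 6.60, 5.54, 71.3 and 61.6 units on the wild-type saline arrays, of which replicates 3 and 4 were well above it. The signal was therefore seen on 6 of the 16 arrays, and the gene passed the filter only through knockout saline, the group in which it is high. The measured difference in knockout was −3.09 ± 0.73 (log2, SE). With the LPS arrays set at the detection floor, knockout LPS was at least 3.37-fold lower than knockout saline. Mean levels ran, from low to high, −7.08 ± 0.37 (SD) in wild-type LPS, −6.30 ± 0.45 in knockout LPS, −5.50 ± 2.20 in wild-type saline and −3.21 ± 0.48 in knockout saline, with overlap between neighbours and with no meaning to the order of the first 2, which lie below detection.

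Dapl1 had an intensity of 10.96, 3.05, 14.8 and 21.1 units on the knockout LPS arrays, of which only replicate 4 was well above background, against 216, 98.3, 109 and 52.1 units on the knockout saline arrays, all well above it. In wild type the intensity was 39.9, 20.8, 19.0 and 10.7 units after LPS, with replicates 1 and 2 well above background, against 52.1, 15.8, 55.0 and 42.6 units after saline, with replicates 1, 3 and 4 well above it. Unlike the other 5 genes, Dapl1 showed no clear gap within wild-type saline, where the mean level was −5.16 on replicates 1 and 2 and −4.05 on replicates 3 and 4, both of which lay below wild-type LPS replicate 1. The measured knockout difference was −3.36 ± 0.56 (log2, SE), 10.2-fold lower. Only 1 of 4 knockout LPS arrays was well above background, so the size of this difference rests mostly on signal below detection. Mean levels were −5.54 ± 1.09 (SD) in knockout LPS, −5.15 ± 0.87 in wild-type LPS and −4.60 ± 0.85 in wild-type saline, which overlapped in turn, and −2.18 ± 0.67 in knockout saline, which lay above all 12 other arrays.

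**Figure D1:**
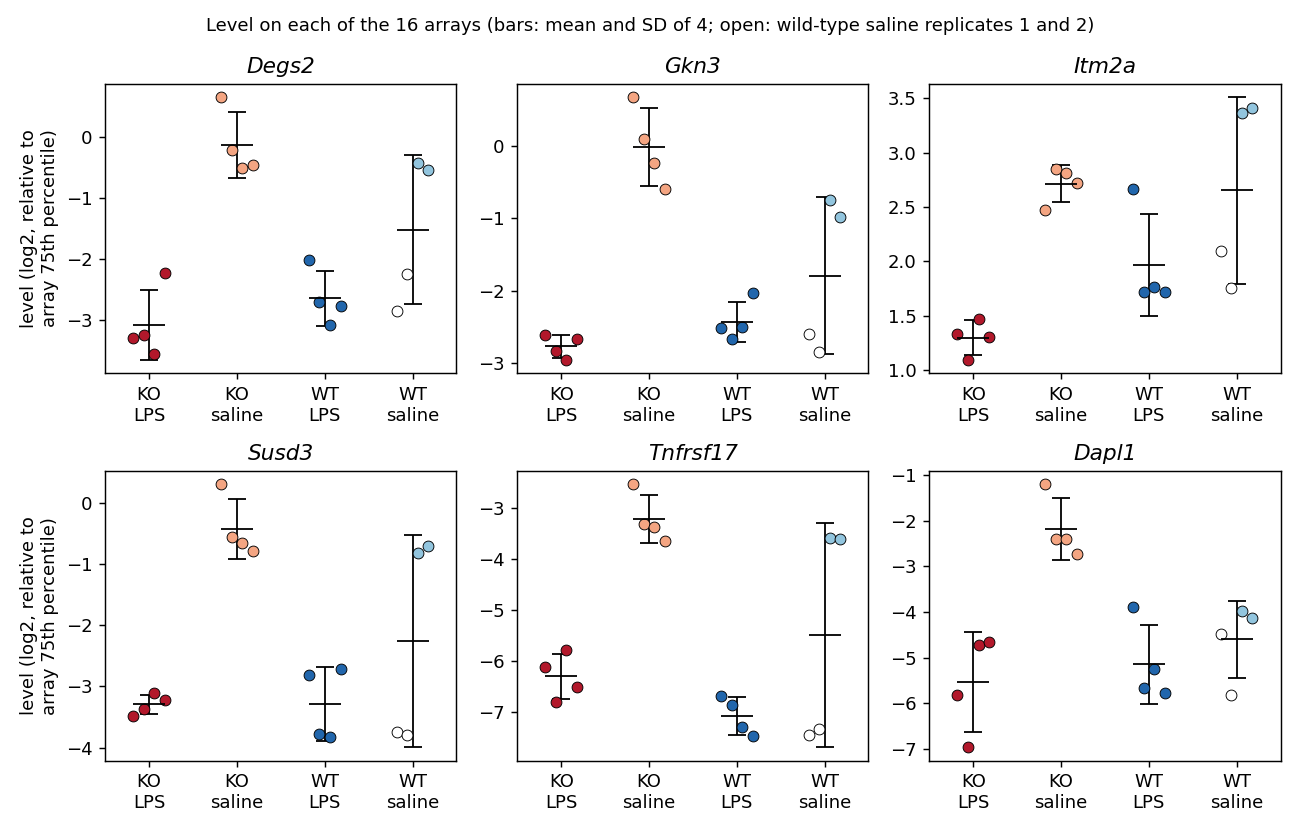
Level of each gene (log2 against each array's 75th percentile) on the 16 arrays in knockout LPS, knockout saline, wild-type LPS and wild-type saline; points are arrays, bars the mean and SD of 4, and open points wild-type saline replicates 1 and 2. Knockout LPS lies below knockout saline without overlap in all 6 panels, and wild-type saline is split in every panel but that of Dapl1.

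In knockout, 222 of 19463 genes (1.14%) were called lower after LPS and 486 (2.5%) higher, at an adjusted p under 0.05 (limma, Benjamini-Hochberg over all genes). All 6 genes are among those called lower and all 6 had groups without overlap, as 1199 of 19446 genes (6.17%) did in this direction, and both counts follow from how the genes were picked. Among the 14645 genes with a symbol, ordered from the lowest difference up, Degs2 was number 8, Susd3 number 10, Gkn3 number 11 and Itm2a number 99. Dapl1 and Tnfrsf17 are given no rank, since most or all of their knockout LPS arrays were not well above background. The authors' deposited table lists Dapl1 as 10.6-fold, Degs2 7.64-fold, Susd3 7.32-fold, Gkn3 6.76-fold and Itm2a 2.67-fold down after LPS in knockout. Normexp background correction, with an offset of 50 intensity units added to each spot, and quantile scaling gave smaller differences. They were −1.24 for Dapl1, −1.95 for Degs2, −1.83 for Susd3, −1.90 for Gkn3 and −0.77 for Tnfrsf17. An added offset narrows the log2 differences of dim signals by construction. Itm2a stayed between −1.50 and −1.35 over all alternatives. Because these are bulk samples, fewer cells of a type and less RNA per cell cannot be told apart.

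The wild-type arrays took no part in the choice of the genes, and there the difference between LPS and saline was tested. With all 8 wild-type arrays, 2 of 19463 genes were called in either direction (0.0103%), and none of the 6 was. At an unadjusted p under 0.05, 1285 genes (6.6%) passed, among them Degs2 and Tnfrsf17. All 6 measured differences were negative, against a median of −0.04 over all genes. They were −1.13 ± 0.48 for Degs2 (log2, SE, adjusted p = 0.713), −0.64 ± 0.40 for Gkn3 (adjusted p = 0.849) and −0.69 ± 0.33 for Itm2a (adjusted p = 0.759). For Susd3 the difference was −1.03 ± 0.60 (adjusted p = 0.82) and for Dapl1 −0.55 ± 0.56 (adjusted p = 0.937). Tnfrsf17 was well above background on 0 of 4 wild-type LPS and 2 of 4 wild-type saline arrays. Its measured difference was −1.58 ± 0.73 (adjusted p = 0.744). With the LPS arrays at the detection floor, the group means differed by 1.24-fold. Saline replicates 1 and 2, which enter that mean, were not well above background either, so no fall in wild type is read from it. None of the 6 had wild-type groups without overlap in this direction, as 540 of 19320 genes (2.8%) did.

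The wild-type fit without saline replicates 1 and 2 was a choice made with their values known and so no independent evidence. In it Susd3, Degs2, Gkn3 and Itm2a were called lower after LPS, as 239 of 19463 genes (1.23%) were. Tnfrsf17 was at least 4.62-fold lower after LPS, with the LPS arrays at the detection floor. Its adjusted p (3.6e-05, limma) came from the measured values, which lay below detection on the LPS arrays, and is not read as a test of that bound. Susd3 fell by 2.53 ± 0.35 (adjusted p = 0.000975) and Degs2 fell by 2.16 ± 0.40 (adjusted p = 0.00726). For Gkn3 the difference was −1.57 ± 0.29 (adjusted p = 0.00833) and for Itm2a −1.43 ± 0.26 (adjusted p = 0.00606). Dapl1 did not pass (−1.10 ± 0.65, adjusted p = 0.445). Susd3, Degs2, Gkn3, Itm2a and Tnfrsf17 had groups without overlap, which with 2 saline arrays left held for 4197 of 19390 genes (21.6%). Over the 29 or 30 alternatives run for each gene, the adjusted p reached 1 for every one of the 6.

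Within slides the wild-type difference had both signs. On slide 1, which holds saline replicates 1 and 2, 1 of 19456 genes (0.00514%) was called lower and none of the 6 was. Degs2 differed there by −0.01 ± 0.45, Tnfrsf17 was not well above background on any of the 4 arrays, and the other 4 were higher after LPS by 0.22 (Gkn3) to 0.58 (Dapl1). On slide 2, which holds saline replicates 3 and 4, 58 of 19463 genes (0.298%) were called lower. Among them were Degs2 (−2.25 ± 0.16, adjusted p = 0.0182), Itm2a (−1.67 ± 0.15, adjusted p = 0.0271) and Dapl1 (−1.67 ± 0.16, adjusted p = 0.0306). For Dapl1, wild-type LPS replicate 4 on that slide was not well above background. A Tnfrsf17 call (adjusted p = 0.0178, limma) rests on measured values with neither LPS array well above background, and is not read as a test. Susd3 (−2.49 ± 0.38, adjusted p = 0.0798) and Gkn3 (−1.49 ± 0.27, adjusted p = 0.106) did not pass with 2 arrays a group. In knockout, whose values chose the genes and whose groups did not overlap, the same sign on both slides was fixed in advance for all 6 genes. The differences were, for example, −2.70 on slide 3 and −4.02 on slide 4 for Dapl1, and −1.37 and −1.47 for Itm2a. They are a description and no replication.

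**Figure D2:**
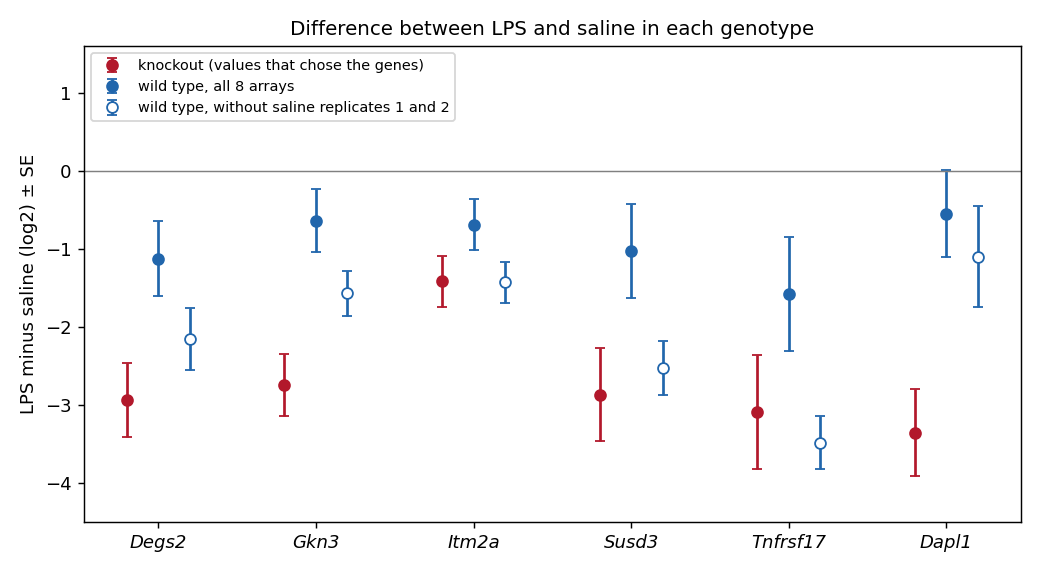
LPS minus saline (log2, bars ± SE of the model) for each gene in knockout, in wild type with all 8 arrays, and in wild type without saline replicates 1 and 2 (open). Every point lies below 0, and the wild-type point of each gene is lower without the 2 arrays. The points of Tnfrsf17 are measured values, although it was not well above background on any LPS array. Those of Dapl1 rest in part on signal below detection.

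The knockout response minus the wild-type response, given as a description because the knockout response chose the genes, was −2.81 ± 0.79 for Dapl1, −2.12 ± 0.57 for Gkn3 and −1.85 ± 0.85 for Susd3 (log2, SE). It was −1.81 ± 0.68 for Degs2 and −0.73 ± 0.47 for Itm2a. Without wild-type saline replicates 1 and 2 it came to −2.25 for Dapl1, −1.19 for Gkn3, −0.79 for Degs2, −0.34 for Susd3 and 0.01 for Itm2a. No such value is given for Tnfrsf17, which was not well above background in either LPS group. Dapl1 was well above background on only 1 of 4 knockout LPS arrays, so its values here rest in part on signal below detection.

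Across the 16 arrays the genes were low where the LPS check genes were high. The 4 knockout saline arrays and wild-type saline replicates 3 and 4 had check genes at −3.76 or below and the highest Degs2, Gkn3, Susd3 and Tnfrsf17 levels of the series. On the 10 other arrays, where the check genes averaged between −1.09 and 1.98, Susd3 did not exceed −2.71 and Gkn3 did not exceed −2.03. Itm2a on wild-type LPS replicate 1, the array with the lowest check genes among the 10, was 2.67 and within the range of the knockout saline arrays. Dapl1 was higher on all 4 knockout saline arrays (lowest −2.73) than on wild-type saline replicates 3 and 4 (highest −3.97), although the check genes were low on both.

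**Figure D3:**
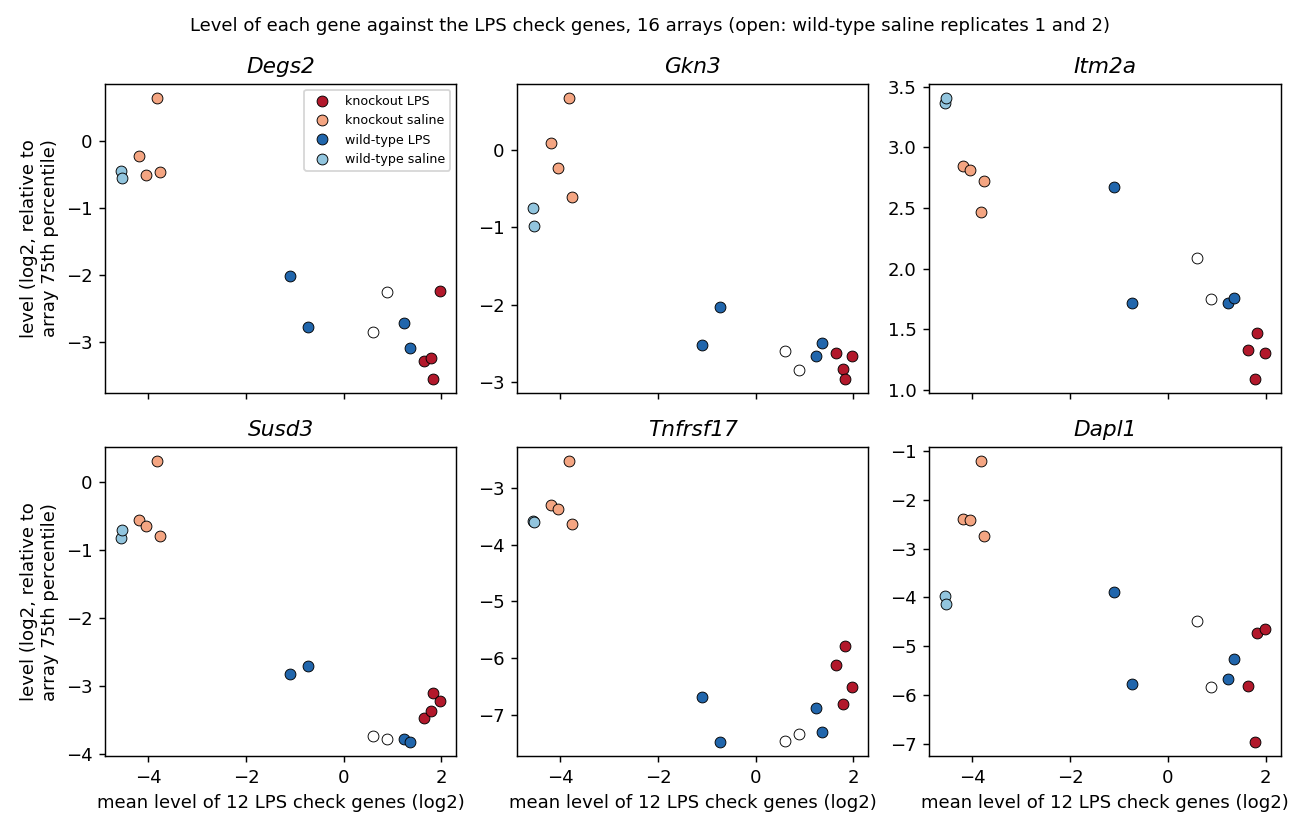
Level of each gene against the mean level of the 12 LPS check genes (both log2 against each array's 75th percentile) on the 16 arrays, coloured by group, with wild-type saline replicates 1 and 2 open. The open points lie with the LPS arrays on both axes, and the knockout saline points of Dapl1 lie above those of wild-type saline replicates 3 and 4.

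The mean of the 2 knockout groups was compared with the mean of the 2 wild-type groups. The genes were not chosen on this comparison, but it shares the knockout arrays and the pooled spread with the one that chose them. The 2 comparisons are therefore not fully independent. Genotypes lay on separate slides, scanned in separate sessions, so genotype and slide cannot be told apart, and 6681 of 19463 genes (34.3%) were called higher and 5628 (28.9%) lower in knockout. Tnfrsf17 passed the filter only through knockout saline and was not well above background in either LPS group, so no genotype difference is given for it. Of the other 5 genes, 2 were called higher and none lower, near the share of all genes. Dapl1 differed by 1.01 ± 0.40 (log2, SE, adjusted p = 0.0353) and Gkn3 by 0.72 ± 0.29 (adjusted p = 0.0384). Susd3 (0.91 ± 0.43, adjusted p = 0.0732), Degs2 (0.48 ± 0.34, adjusted p = 0.234) and Itm2a (−0.31 ± 0.24, adjusted p = 0.268) did not pass. With slide as a random block both calls were lost (adjusted p = 0.142 for Dapl1 and 0.0996 for Gkn3). Without wild-type saline replicates 1 and 2, Dapl1 (0.74, adjusted p = 0.145) and Gkn3 (0.25, adjusted p = 0.265) were not called and Itm2a was called lower (−0.67, adjusted p = 0.00326). The Dapl1 call was also lost on leaving out knockout LPS replicate 3 or 4, knockout saline replicate 1, wild-type LPS replicate 2, 3 or 4 or wild-type saline replicate 2 (adjusted p 0.0539 to 0.078). Gkn3 lost its call without knockout LPS replicate 1, 2 or 4, knockout saline replicate 1 or 2, wild-type LPS replicate 1, 2 or 3 or wild-type saline replicate 1 or 2 (adjusted p 0.0535 to 0.0837). Susd3 was called without wild-type saline replicate 3 (1.15, adjusted p = 0.0205) or replicate 4 (1.17, adjusted p = 0.0165). The dimmer Susd3 probe, not well above background on any LPS array, gave −0.02 ± 0.31 with all arrays (adjusted p = 0.95, limma on each probe). The authors' deposited table gives, for knockout against wild type after saline, 5.35-fold up for Dapl1, 3.57-fold for Susd3, 3.43-fold for Gkn3, 2.61-fold for Degs2 and 1.04-fold for Itm2a, with wild-type saline replicates 1 and 2 in the wild-type group. After LPS the authors' deposited table lists all 5 as down in knockout against wild type, 1.59-fold for Itm2a, 1.36-fold for Dapl1, 1.34-fold for Degs2, 1.27-fold for Gkn3 and 1.01-fold for Susd3.

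Relatives of the 6 genes were read in the same comparison. Over the 5 lists of related genes, 61 relatives were measured and 0 were called in knockout after LPS (limma), with differences of −1.02 to 0.75, and 11 passed at an unadjusted p under 0.05. Over all 19463 genes, 708 (3.64%) were called in either direction and 2823 (14.5%) passed at an unadjusted p under 0.05, so these counts are near the background and no result about the relatives. Among sphingolipid enzymes and receptors, 0 of 33 others passed (median −0.04). Degs1, which makes the double bond of ceramide in most tissues, differed by −0.15 ± 0.17 (adjusted p = 0.72), and Fa2h, the fatty acid hydroxylase of myelin lipids, by −1.02 ± 0.37 (adjusted p = 0.186). At an unadjusted p under 0.05, 8 of the 34 measured, Degs2 included, passed, against 14.5% of all genes.

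Of the BRICHOS family, 4 others were measured. Itm2b, whose human form underlies familial dementias, differed by 0.13 ± 0.22 in knockout after LPS and Itm2c, its brain paralogue, by 0.15 ± 0.17. The remaining 2, Sftpc and Tnmd, differed by −0.57 ± 0.25 and 0.09 ± 0.29, and none of the 4 was called. Gkn1 and Gkn2, the stomach gastrokines, were well above background on no array. Among 12 other sushi-domain genes none was called (−0.33 to 0.70), with 0.05 ± 0.25 for Susd2 and −0.19 ± 0.32 for Susd4.

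In the BAFF and APRIL pathway, the other receptor measured, Tnfrsf13b (TACI), differed by −0.53 ± 0.21 (adjusted p = 0.223) and the ligand Tnfsf13b (BAFF) by −0.46 ± 0.41 (adjusted p = 0.645). None of 7 others was called. Among death-associated protein genes none of 5 was called either, with −0.08 ± 0.18 for Dap and 0.54 ± 0.17 for the kinase Dapk1 (adjusted p = 0.116). In wild type no gene of the 5 lists was called after LPS with all arrays. The relatives were named for their kinship or pathway, not for their values.

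**Figure D4:**
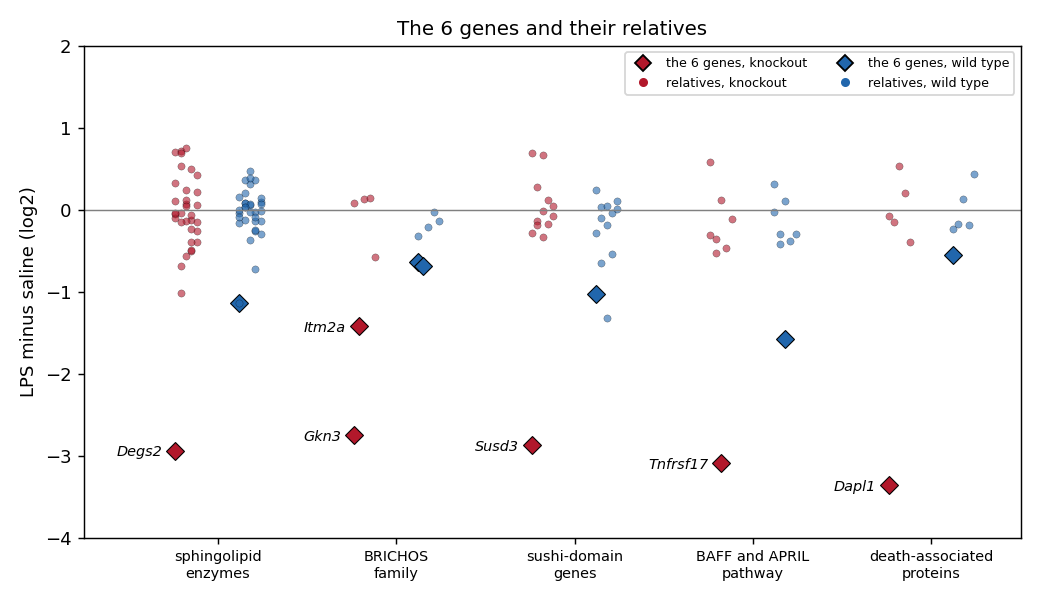
LPS minus saline (log2) in knockout and in wild type for the 6 genes (diamonds) and the other measured genes of 5 lists (circles): sphingolipid enzymes and receptors, the BRICHOS family, sushi-domain genes, the BAFF and APRIL pathway and death-associated protein genes. The 61 relatives lie between −1.02 and 0.75 in knockout. The 6 genes lie below them there, which follows from how they were picked.

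Markers of the cell types in which these genes are known were read beside them. Of 18 brain endothelial markers, 2 fell and 0 rose in knockout after LPS, against 1.14% of all genes called lower. They were the receptor Tek (−2.43 ± 0.54, adjusted p = 0.0181) and the efflux pump Abcb1a (−2.40 ± 0.50, adjusted p = 0.0115). The median difference of the 18 markers was −0.50, against −0.09 over all genes. Their mean level per array was −1.08 to −0.91 in knockout LPS against −0.68 to −0.33 in knockout saline, and −0.87 to −0.61 in wild-type LPS against −0.58 to −0.08 in wild-type saline. The pan-endothelial adhesion molecule Pecam1 differed by −0.02 ± 0.14 in knockout and the tight junction gene Cldn5 by −1.07 ± 0.31 (adjusted p = 0.0739). The list went both ways, with positive differences that were not called for the junction cadherin Cdh5 (1.30 ± 0.40, adjusted p = 0.0969), the lipid transporter Mfsd2a (0.68 ± 0.20, adjusted p = 0.0833) and the glucose transporter Slc2a1 (0.44 ± 0.16, adjusted p = 0.184). Larger negative differences, also not called, were those of Slco1a4 (−2.92 ± 0.81, adjusted p = 0.0611) and Tie1 (−1.74 ± 0.48, adjusted p = 0.0606). At an unadjusted p under 0.05, 11 of the 18 passed in either direction, against 14.5% of all genes. Of 9 arterial markers measured, 2 fell and 0 rose, against 1.14% of all genes called lower. They were Sema3g (−1.23 ± 0.28, adjusted p = 0.0219) and Vegfc (−0.72 ± 0.13, adjusted p = 0.00637). Efnb2 (0.33 ± 0.41) and Dll4 (0.31 ± 0.23) had positive differences that were not called. The arterial list's mean level was −0.43 to −0.37 in knockout LPS against −0.18 to 0.02 in knockout saline. The part of endothelial content in the results for Gkn3 and Itm2a was not tested.

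Other cell types were read in the same way. None of 10 mural cell markers was called in knockout after LPS (median −0.14). Of 14 microglia markers 3 fell and 0 rose, against 1.14% of all genes called lower. They were Gpr34 (−4.0 ± 0.86, adjusted p = 0.014), Olfml3 (−1.49 ± 0.27, adjusted p = 0.00525) and Selplg (−1.33 ± 0.30, adjusted p = 0.018). Csf1r (0.01 ± 0.36) and C1qa (0.15 ± 0.26) hardly differed. The microglia list's mean level was −0.95 to −0.60 in knockout LPS against −0.11 to 0.29 in knockout saline. Of 7 meningeal fibroblast markers 2 fell and 0 rose, against 1.14% of all genes called lower. They were Slc6a13 (−1.79 ± 0.35, adjusted p = 0.00907) and Col1a2 (−1.06 ± 0.22, adjusted p = 0.0118). Lum (0.68 ± 0.32) and Dcn (0.15 ± 0.38) had positive differences that were not called. The part of these cell types in the results for the 6 genes was not tested either.

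Tnfrsf17 is known as a plasma cell gene, and markers of that lineage were detected only in part. Of 13 B cell and plasma cell markers, 2 to 9 were well above background on an array, Cd79a, Pax5 and Fcrla were so on no array, and 6 passed the filter. None of the 6 was called in knockout after LPS, against 3.64% of all genes called in either direction. The B cell receptor subunit Cd79b had the lowest difference (−1.48 ± 0.52, adjusted p = 0.166) and alone passed at an unadjusted p under 0.05, with 0.13 ± 0.19 for the immunoglobulin joining chain Jchain, 0.07 ± 0.28 for the plasma cell proteoglycan Sdc1 and −0.25 ± 0.23 for Mzb1. The list's mean level was −3.59 to −3.32 in knockout LPS and −3.27 to −3.06 in knockout saline.

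The levels of the 6 genes ran together over the 16 arrays once the mean of each genotype had been subtracted. Pearson's r over the 15 pairs of genes ranged from 0.805 (Dapl1 with Tnfrsf17) to 0.962 (Susd3 with Tnfrsf17), with a median of 0.92. The arrays share treatment, slide and scaling, and the genes were chosen on the knockout arrays, so these values are a description. Tnfrsf17 was not well above background on any LPS array, and Dapl1 was so on only 1 of 4 knockout LPS arrays. Their r values, here and below, therefore rest in part on signal below detection. By the same measure the genes most like Degs2 were Sox18 (r = 0.980), Slc52a3 (0.974) and Eogt (0.974). Those most like Susd3 were Rhcg (0.980), Slc2a5 (0.979) and Ushbp1 (0.975), and those most like Gkn3 were Sned1 (0.975), Asgr1 (0.967) and Higd1b (0.963). Itm2a ran with Slco1c1 (0.965), Slc40a1 (0.960) and Ptprb (0.959), and Tnfrsf17 with Sox17 (0.967), Wfdc1 (0.964) and Tbxa2r (0.963). Dapl1 had lower values throughout, led by Kcnb2 (0.924), Slc22a6 (0.922) and Rgs4 (0.919). Among 14509 genes compared, r passed 0.9 for 9 genes with Dapl1, against 30 with Itm2a, 63 with Tnfrsf17, 69 with Gkn3, 94 with Degs2 and 101 with Susd3.

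The 250 bases before the transcription start of each gene (RefSeq, GRCm38.p6, 1 promoter for each of the 6) were searched on both strands for 6 motifs, which were the general TATA box and 5 motifs of factors active after LPS or in vessels. TGTTCT, the repeat unit of a glucocorticoid response element, and TTCNNNGAA, a STAT site, were in none of the 6, and in 16.1% and 7.0% of all 32851 promoters. GAAANNGAA, the core of an interferon-stimulated response element, was in 1 (7.1% of all), TTGCNNAA, a C/EBP site, in 1 (9.6%), TGTTTAC, a forkhead site, in 1 (3.2%) and TATAAA, the TATA box, in 2 (12.4%). All 5 matches, of which 2 are the TATA box, lie in Dapl1 and Tnfrsf17, whose promoters are therefore shown 5′ to 3′ on the gene's strand, with the matches in capitals. In Dapl1 the capitals mark the forkhead match on the opposite strand, the C/EBP match and a TATA box that begins 29 bases before the start. In Tnfrsf17 they mark a TATA box match that begins 114 bases before the start and the interferon element on the opposite strand, 100 bases before it. A match is a run of letters and no evidence of binding.
Dapl1, chr2:59484403-59484652, plus strand: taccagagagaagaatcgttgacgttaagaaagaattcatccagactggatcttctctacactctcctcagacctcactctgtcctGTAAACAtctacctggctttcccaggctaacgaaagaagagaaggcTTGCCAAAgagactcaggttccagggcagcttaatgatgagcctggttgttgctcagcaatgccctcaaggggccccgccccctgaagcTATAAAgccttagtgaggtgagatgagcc
Tnfrsf17, chr16:11313559-11313808, plus strand: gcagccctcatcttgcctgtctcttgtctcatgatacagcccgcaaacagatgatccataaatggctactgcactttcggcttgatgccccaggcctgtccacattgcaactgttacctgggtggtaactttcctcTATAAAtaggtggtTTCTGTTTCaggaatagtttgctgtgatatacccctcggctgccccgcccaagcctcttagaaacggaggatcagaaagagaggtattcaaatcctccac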

How the data were processed

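Cy3-labelled RNA from whole amygdala was read on 16 single-colour Agilent arrays, 4 in each group. The deposited array files hold linear spot intensity. Images were read with Agilent Feature Extraction 9.5, according to the submitters' processing notes. The file headers show that background was subtracted and spatial trends were removed from the processed intensity within each array. The authors also deposited log2 group means, from which no value is printed. Another holds the authors' linear fold change, a ratio between group means, for 4 comparisons, and Tnfrsf17 is not in it. The 32 columns of detection calls in these lists went unused.

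Control spots were left out and spots marked as outliers were set to missing. Each value is log2 of the processed intensity minus the array's 75th percentile. A probe was kept if 3 or more of 4 arrays in some group showed it well above background (28347 probes), and a gene was represented by its kept probe with the highest mean, which left 19463 genes. Of the probes, 24844 were named through RefSeq accessions and 16330 by the file's name. limma 3.58.1 (R 4.3.3) was fitted to 4 group means over 16 arrays, with Benjamini-Hochberg adjustment over genes, and an adjusted p under 0.05 was called. The fit pools the spread of all groups, so the split of wild-type saline widens the errors of the knockout comparison too. The script was tested on simulated data. Where no array of a group was well above background, the bound sets the other group's mean against that group's floor, which is on each array the weakest signal of any detected probe or, if higher, the probe's own. All 7 probes of the 6 genes were described. Of each list, up to 4 called genes with the largest difference were named. Likeness was the highest Pearson r over the 16 arrays among genes with a symbol. The 6 genes and all lists were chosen with earlier results of these data known. The number of arrays limits the precision. The smallest median difference between any pair of arrays was 0.12 (log2), so no pair was a duplicate.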

Additional observations from a re-analysis of the deposited data

Results flagged for a closer look

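In 24 sets of 4 arrays, each gene in each group, the highest and lowest array were set against the others. Chance alone marks about 1 set in 20, and 1 was marked. Itm2a on wild-type LPS replicate 1 was 2.67 (log2, relative to the array's 75th percentile), far above the 1.72, 1.76 and 1.72 of the other 3 wild-type LPS arrays. The LPS check genes averaged −1.09 on that array, the lowest of the 4.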

How the results depend on the processing

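The count of genes called after LPS in wild type, 2 in the fit reported, was 1 with quantile scaling, 1 with probes above background on all arrays and 7 with the 8 wild-type arrays alone. It was 0 with median scaling, probe GC correction, no filter, each probe on its own or the replicate number as a block (1198, 1399, 1649, 1777 and 1153 genes at an unadjusted p under 0.05). It reached 245 within slide 2 and 611 without wild-type saline replicates 1 and 2, and leaving out 1 array gave 0 to 19. In knockout the count, 708, was 178 within slide 4 and 430 to 756 on leaving out 1 array. The genotype count, 12309, stayed between 9500 and 16496 over the alternatives run. Arrays with the same number were not treated as pairs. The r of their deviations was over 0.1 in 2 of 24 pairs (range −0.381 to 0.336). The arrays of each of these 2 pairs shared a slide, so this check cannot exclude pairing. Of the 6 genes, 5 changed sign in wild type within slide 1 (Dapl1 0.58, Susd3 0.44, Gkn3 0.22, Itm2a 0.29, and Tnfrsf17 0.41, the last not well above background on any of the 4 arrays), and Degs2 changed sign between genotypes without wild-type saline replicates 1 and 2 (−0.03). Among the genotype calls, that of Dapl1 was made under 16 of 26 alternatives and that of Gkn3 under 12 of 27. In knockout all 6 kept their sign under every alternative run, a description only, since these values chose the genes. The cause of these shifts was not tested. The dim signals of Tnfrsf17 and Dapl1 limit the size of their differences, which were smaller under normexp with its offset of 50 units.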
